A study of Homo sapiens with 20 samples.

Results

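The 8 genes described here, ANKRD1, AMOTL1, AMOTL2, CRIM1, AXL, NT5E, F3 and CCDC80, are commonly listed as direct targets of TEAD transcription factors and lie outside the CCN family. They were chosen by symbol, and all probe sets annotated to those symbols were taken: 19 of the 41091 probe sets with a single gene symbol, and 8 of the 19775 genes tested. TEAD proteins bind DNA but need a coactivator, and the paralogues YAP and TAZ (genes YAP1 and WWTR1) fill that role when they reach the nucleus. The Hippo kinases keep YAP and TAZ in the cytoplasm, and work on Wnt signalling has tied TAZ to the complex of APC, axin and GSK3 that marks beta-catenin for degradation. In mammary epithelial cells active TAZ is known for adhesion-independent growth and stem-like behaviour, and genes such as ANKRD1 are widely used as readouts of it.

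Each of 20 MII cell samples was hybridised to its own Affymetrix HG-U133 Plus 2.0 array. MII, also called MCF10-T1k, is a RAS-transformed line of human mammary epithelial origin, so every group carried that transformation, and all of it is a single cell line. There were 5 groups of 4 arrays, lettered A to D: siRNA against APC and TAZ (siAPC/siTAZ), against APC alone (siAPC), against beta-catenin and TAZ (sibcat/siTAZ), against beta-catenin alone (sibcat), and control siRNA (siGFP). All cells were transfected with RNAiMAX, had no other treatment and grew in normal medium with HS, insulin, EGF, hydrocortisone and cholera toxin, and no group received TAZ siRNA alone. The replicates are called biological without mention of separate cultures, so the p-values measure the spread between these samples, which may be technical. The series title asks about TAZ in Wnt signalling, and the comparisons therefore ask how the TEAD targets moved when either Wnt component was depleted and what TAZ siRNA did to them.

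Signals are log2 values from RMA, so a difference of 1 is a doubling. Array medians lay between 5.07 and 5.11, and the lowest correlation between arrays of the same group was 0.996. The number of arrays limits the precision. WWTR1, which encodes TAZ, averaged 7.98 in siAPC/siTAZ cells and 10.64 in siAPC cells, and 8.41 in sibcat/siTAZ cells and 10.62 in sibcat cells, with 11.06 in siGFP cells. APC averaged 6.89 in siAPC/siTAZ and 7.35 in siAPC cells against 8.22 in siGFP cells, and CTNNB1, which encodes beta-catenin, averaged 9.20 in sibcat/siTAZ and 10.60 in sibcat cells against 11.94 in siGFP cells. All 8 of the mammary epithelial markers measured were above the array median in each of the 5 groups, although most were lower with TAZ siRNA, as given with the other markers. In bulk RNA, fewer cells of a kind and less RNA per cell cannot be told apart.

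TEAD factors act through short DNA motifs, so the promoter sequences of ANKRD1, AMOTL2 and F3, which held matches and whose signals fell strongly with TAZ siRNA, are shown first. RefSeq (GRCh38.p14) gave 9 windows of 250 bases upstream of the transcription start for 7 of the 8 genes, all but CRIM1. They were searched on both strands for the TEAD core GGAATG, which reads CATTCC on the opposite strand, the AP-1 motif TGANTCA, whose factors often bind beside TEAD, and the TCF/LEF motif CTTTGAT, which reads ATCAAAG on the opposite strand and is the one beta-catenin acts through. None of the motifs overlapped another. The windows below run 5′ to 3′ on the strand of the gene and end at the base before its start, with the matches in capitals.
ANKRD1 (chr10:90921088-90921337, minus strand): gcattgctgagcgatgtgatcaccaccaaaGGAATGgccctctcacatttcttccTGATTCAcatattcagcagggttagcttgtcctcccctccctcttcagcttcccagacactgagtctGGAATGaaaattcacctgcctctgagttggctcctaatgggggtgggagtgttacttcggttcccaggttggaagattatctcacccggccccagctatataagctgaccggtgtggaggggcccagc
AMOTL2 (chr3:134374448-134374697, minus strand): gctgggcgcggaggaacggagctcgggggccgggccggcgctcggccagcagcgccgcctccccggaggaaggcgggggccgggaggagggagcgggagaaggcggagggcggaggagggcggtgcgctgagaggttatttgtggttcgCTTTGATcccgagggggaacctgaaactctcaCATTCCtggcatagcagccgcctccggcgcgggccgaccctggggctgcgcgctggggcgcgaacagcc
F3 (chr1:94541760-94542009, minus strand): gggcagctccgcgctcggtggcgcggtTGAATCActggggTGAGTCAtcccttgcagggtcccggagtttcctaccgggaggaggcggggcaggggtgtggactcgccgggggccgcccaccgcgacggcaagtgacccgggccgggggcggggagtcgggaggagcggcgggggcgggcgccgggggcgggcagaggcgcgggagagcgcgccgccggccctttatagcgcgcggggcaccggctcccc

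The ANKRD1 window held 2 TEAD cores, beginning 220 and 128 bases upstream of the start, with the AP-1 match TGATTCA between them at 195 bases upstream. The AMOTL2 window held 1 TEAD core in the antisense orientation, 69 bases upstream, and the TCF/LEF match CTTTGAT at 101 bases upstream. The F3 window held no TEAD core but 2 AP-1 matches, TGAATCA at 223 and TGAGTCA at 210 bases upstream. Of the other windows, only the one for AXL at chr19:41226505-41226754 held a match, a TEAD core 212 bases upstream. A further AMOTL2 window, the other AXL window and those of AMOTL1, NT5E and CCDC80 held no match to any of the motifs. In all, 3 of the 9 windows held a TEAD core, against 11.9% of 35116 human promoter windows of this length, 2 held an AP-1 match, against 6.57%, and 1 held a TCF/LEF match, against 2.26%. A match is a description of the letters and not of a bound site.

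The TEAD targets were mostly high after depletion of either Wnt component and low again once TAZ siRNA was added. After siAPC, 7 of the 8 genes rose against siGFP and 1, AMOTL1, fell, while 21.3% of all genes tested rose and 18.7% fell. After sibcat, 6 rose, AMOTL1 fell and F3 did not pass the test, beside 21.4% of all genes higher and 15.7% lower. The median of the 8 log2 differences was 1.42 for siAPC and 1.10 for sibcat, where the median over all genes was 0.00 in both. These comparisons share the siGFP arrays, so their values stand side by side and are not independent.

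Adding TAZ siRNA lowered most of these genes in both backgrounds. In siAPC/siTAZ cells 7 of the 8 fell against siAPC cells and AMOTL1 rose, while 22.8% of all genes fell and 20.7% rose. In sibcat/siTAZ cells 7 of the 8 again fell against sibcat cells and AMOTL1 rose, beside 13.7% of all genes lower and 18% higher. The medians of the 8 differences were -2.27 and -2.08, against -0.03 and 0.01 over all genes. The pairs of groups behind these values have no array in common.

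**Figure D1:**
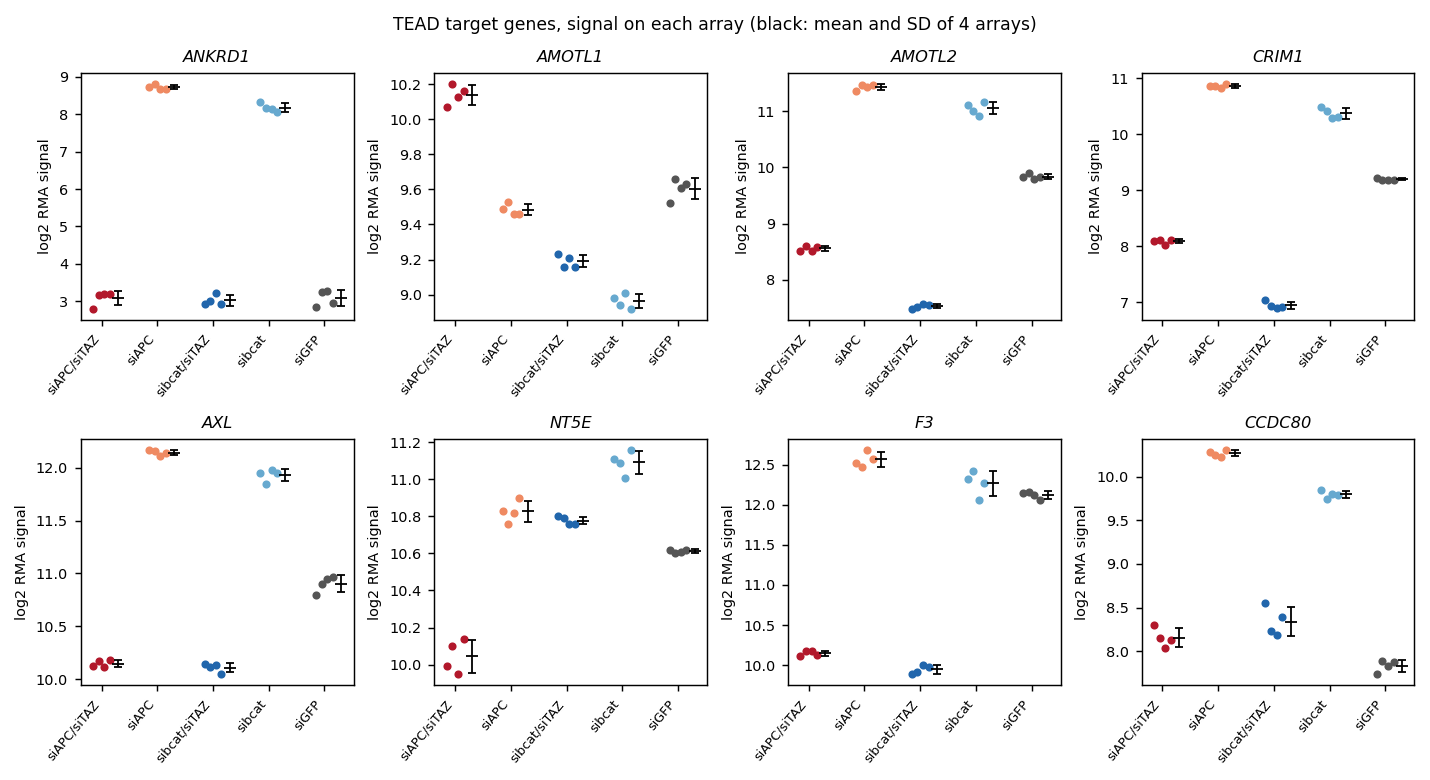
Log2 RMA signal (vertical axis) of each of the 8 TEAD target genes on every array, by group along the horizontal axis, with black marks for the mean and SD of 4 arrays. Each panel has its own scale. ANKRD1 lies between 2.80 and 3.26 in the siAPC/siTAZ, sibcat/siTAZ and siGFP groups and at 8.06 or more in siAPC and sibcat, whereas AMOTL1 is highest in siAPC/siTAZ.

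ANKRD1 encodes an ankyrin repeat protein best known from the nucleus and sarcomere of heart muscle, and it had the widest swing of the 8. Its signal on the 4 siAPC/siTAZ arrays was 2.80, 3.15, 3.20 and 3.20, against 8.74, 8.80, 8.69 and 8.68 on the siAPC arrays. On the sibcat/siTAZ arrays it was 2.92, 3.00, 3.21 and 2.93, against 8.34, 8.18, 8.13 and 8.06 on the sibcat arrays, and the siGFP arrays gave 2.85, 3.25, 3.26 and 2.96. All siAPC and sibcat arrays stood far above the rest, and the other 3 groups overlapped. Its log2 difference was 5.65 (SE 0.10, adjusted p = 5.32e-19, limma) for siAPC against siGFP and 5.10 (SE 0.10, adjusted p = 4.31e-18) for sibcat against siGFP, or 50.1-fold and 34.2-fold. With TAZ siRNA the difference was -5.64 (adjusted p = 5.59e-19) in siAPC cells and -5.16 (adjusted p = 3.21e-18) in sibcat cells. With TAZ siRNA present, neither combined depletion was shown to differ from siGFP, at 0.01 (adjusted p = 0.964) for siAPC/siTAZ and -0.07 (adjusted p = 0.653) for sibcat/siTAZ. This probe set sat at percentile 77.1 of all genes in siAPC cells and at percentile 10.1 in siGFP cells. A signal that dim can lie near background, where folds understate differences, and no detection calls were used here.

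The 2 angiomotin-like genes moved in opposite directions. Angiomotins are scaffolds at cell junctions that bind YAP and TAZ and hold them out of the nucleus, and AMOTL2 is regarded as a negative feedback target. AMOTL2 signal was 8.52, 8.60, 8.52 and 8.59 on the siAPC/siTAZ arrays, against 11.36, 11.46, 11.43 and 11.46 on the siAPC arrays. It was 7.49, 7.51, 7.57 and 7.55 on the sibcat/siTAZ arrays, against 11.11, 11.01, 10.92 and 11.17 on the sibcat arrays, with 9.82, 9.90, 9.79 and 9.82 on the siGFP arrays. No 2 groups overlapped, and both combined depletions lay below siGFP. AMOTL2 rose by 1.60 (SE 0.05, adjusted p = 1.06e-15) after siAPC and by 1.22 (SE 0.05, adjusted p = 1.1e-13) after sibcat. With TAZ siRNA it fell by 2.87 (adjusted p = 2.33e-19) in siAPC cells. In sibcat cells it fell by 3.52 (adjusted p = 1.53e-20), an 11.5-fold decrease.

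AMOTL1 was the exception among the 8. Its brightest probe set gave 10.07, 10.20, 10.13 and 10.16 on the siAPC/siTAZ arrays, against 9.49, 9.53, 9.46 and 9.46 on the siAPC arrays. It gave 9.23, 9.16, 9.21 and 9.16 on the sibcat/siTAZ arrays, against 8.98, 8.94, 9.01 and 8.92 on the sibcat arrays, and 9.52, 9.66, 9.61 and 9.63 on the siGFP arrays. The siAPC/siTAZ arrays were highest and the sibcat arrays lowest, while siAPC and siGFP overlapped at their edges. AMOTL1 rose with TAZ siRNA by 0.66 (SE 0.04, adjusted p = 3.44e-11) in the siAPC and by 0.23 (SE 0.04, adjusted p = 0.000124) in the sibcat background. With averaged probe sets the first of these was 0.39 (adjusted p = 7.77e-08). Against siGFP it fell by 0.64 (adjusted p = 9.5e-11) after sibcat and by 0.12 (adjusted p = 0.0197) after siAPC. That last call was lost when each array was centred on its median (adjusted p = 0.0772), when only these 2 groups were fitted (adjusted p = 0.0578), when the probe sets of a gene were averaged (-0.03, adjusted p = 0.614), and without siGFP replicate B or D or siAPC replicate C or D (adjusted p between 0.0504 and 0.0698).

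The partners of the angiomotins did not move as one group. Of 11 measured genes for junction interactors, TAZ-binding ubiquitin ligases and tankyrases, 7 rose and 2 fell after siAPC (median difference 0.20), beside 21.3% and 18.7% of all genes. With TAZ siRNA in siAPC cells 5 fell and 3 rose (median -0.05), beside 22.8% and 20.7% of all genes. The one with the clearest swing was PALS1, a polarity scaffold at tight junctions, which averaged 9.54 ± 0.04 in siAPC/siTAZ and 11.57 ± 0.02 in siAPC cells, 9.86 ± 0.04 in sibcat/siTAZ and 11.28 ± 0.04 in sibcat cells, and 9.68 ± 0.07 in siGFP cells (SD, n = 4 each). PALS1 rose by 1.89 and 1.59 after siAPC and sibcat with differences of -2.03 and -1.42 for TAZ siRNA, all called. Another polarity scaffold, PATJ, fell by 0.58 after siAPC and 0.98 after sibcat. Among the ligases that bind angiomotins or TAZ, NEDD4L fell by 0.79 and WWP1 rose by 0.46 with TAZ siRNA in siAPC cells, and the tankyrase TNKS2 rose by 0.61. AMOT, the founding angiomotin, was dim in all groups, between 3.03 and 3.41 on average.

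CRIM1 is a transmembrane protein whose cysteine-rich repeats bind bone morphogenetic proteins (BMPs). Its brightest probe set gave 8.10, 8.12, 8.03 and 8.11 on the siAPC/siTAZ arrays, against 10.87, 10.86, 10.82 and 10.89 on the siAPC arrays. It gave 7.04, 6.94, 6.90 and 6.92 on the sibcat/siTAZ arrays, against 10.49, 10.41, 10.29 and 10.30 on the sibcat arrays, and 9.22, 9.19, 9.19 and 9.19 on the siGFP arrays. As for AMOTL2, no 2 groups overlapped and the order was the same: siAPC, sibcat, siGFP, siAPC/siTAZ, sibcat/siTAZ. CRIM1 rose by 1.66 (SE 0.04, adjusted p = 1.66e-16) after siAPC and by 1.18 (SE 0.04, adjusted p = 5.83e-14) after sibcat. With TAZ siRNA it fell by 2.77 (adjusted p = 1.35e-19) in the siAPC and by 3.42 (adjusted p = 7.69e-21) in the sibcat background. Its other probe sets, 202552_s_at and 228496_s_at, moved the same way, by 1.34 and 1.35 after siAPC and by -2.55 and -2.48 with TAZ siRNA in siAPC cells.

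Among 11 other measured BMP-binding genes, 3 rose and 2 fell after siAPC, shares near the 21.3% and 18.7% of all genes. With TAZ siRNA in siAPC cells 5 fell and 1 rose, beside 22.8% and 20.7% of all genes. NOG, the secreted antagonist noggin, averaged 6.64 in siAPC/siTAZ and 7.63 in siAPC cells, 6.04 in sibcat/siTAZ and 7.27 in sibcat cells, and 6.18 in siGFP cells. NOG therefore rose by 1.45 and 1.09 with the single depletions and fell by 0.99 and 1.23 with TAZ siRNA. FSTL3, a follistatin-like binder of activins, rose by 1.00 and 0.90 and fell by 1.79 and 0.92 in the same comparisons. FST, follistatin itself, rose by 0.24 after siAPC and fell by 0.53 after sibcat.

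AXL is a receptor tyrosine kinase of the TAM family whose ligand is GAS6. Its brighter probe set gave 10.12, 10.17, 10.11 and 10.18 on the siAPC/siTAZ arrays, against 12.17, 12.16, 12.11 and 12.14 on the siAPC arrays. It gave 10.14, 10.11, 10.13 and 10.05 on the sibcat/siTAZ arrays, against 11.95, 11.85, 11.98 and 11.95 on the sibcat arrays, and 10.80, 10.90, 10.95 and 10.97 on the siGFP arrays. The single depletions were above siGFP on every array, both combined depletions were below it, and the combined depletions overlapped each other. AXL rose by 1.24 (SE 0.04, adjusted p = 5.32e-15) after siAPC and by 1.03 (SE 0.04, adjusted p = 1.57e-13) after sibcat. It fell 4.00-fold (log2 difference -2.00, adjusted p = 3.87e-18) with TAZ siRNA in siAPC cells and 3.54-fold (-1.83, adjusted p = 2.81e-17) in sibcat cells. The dimmer probe set, 202685_s_at, moved less, by 0.66 and 0.50 after the single depletions and by -1.01 and -0.65 with TAZ siRNA, all called. Against siGFP, however, 202685_s_at was not called in siAPC/siTAZ (-0.35, adjusted p = 0.0572) or sibcat/siTAZ cells (-0.15, adjusted p = 0.447).

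GAS6 rose and fell in the same 4 comparisons as AXL. It averaged 8.89 ± 0.08 in siAPC/siTAZ and 10.72 ± 0.04 in siAPC cells, 9.36 ± 0.06 in sibcat/siTAZ and 10.55 ± 0.16 in sibcat cells, and 9.24 ± 0.05 in siGFP cells (SD, n = 4 each). Its differences were 1.48 (adjusted p = 1.61e-13) and 1.31 (adjusted p = 1.65e-12) for the single depletions against siGFP, and -1.83 (adjusted p = 5.53e-15) and -1.20 (adjusted p = 7.04e-12) with TAZ siRNA. PROS1, protein S, which also binds TAM receptors, rose by 1.08 after siAPC and 0.30 after sibcat and fell by 0.27 and 0.62 with TAZ siRNA. The sister receptor TYRO3 rose by 0.42 and 0.41 after the single depletions, with no call for TAZ siRNA (0.22, adjusted p = 0.132, and 0.20, adjusted p = 0.206). MERTK was dim, at 3.38 to 3.54 on average, with differences between -0.13 and 0.10 that did not pass the test.

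NT5E encodes CD73, the surface enzyme that makes adenosine from AMP, and it had the smallest shifts of the genes that TAZ siRNA lowered. Its brightest probe set gave 9.99, 10.10, 9.95 and 10.14 on the siAPC/siTAZ arrays, against 10.83, 10.76, 10.82 and 10.90 on the siAPC arrays. It gave 10.80, 10.79, 10.76 and 10.76 on the sibcat/siTAZ arrays, against 11.11, 11.09, 11.01 and 11.16 on the sibcat arrays, and 10.62, 10.60, 10.61 and 10.62 on the siGFP arrays. Only siAPC/siTAZ lay below siGFP, and siAPC and sibcat/siTAZ overlapped. NT5E rose by 0.22 (SE 0.04, adjusted p = 0.00052) after siAPC and by 0.48 (SE 0.04, adjusted p = 3.66e-08) after sibcat, and it was the only gene of the 8 that was lower in siAPC than in sibcat cells, with a log2 difference of -0.27 (adjusted p = 7.49e-05). TAZ siRNA lowered it by 0.78 (adjusted p = 1.44e-11) in the siAPC and by 0.32 (adjusted p = 1.14e-05) in the sibcat background.

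The probe sets for NT5E disagreed in part. Probe sets 1553994_at and 1553995_a_at were not called after siAPC (0.06, adjusted p = 0.539, and 0.11, adjusted p = 0.0838), though both fell by 0.74 with TAZ siRNA in siAPC cells. The dim probe set 227486_at rose by 0.78 after siAPC and had no call for TAZ siRNA in siAPC cells (0.22, adjusted p = 0.0979). The sibcat/siTAZ level of NT5E against siGFP also depended on the probe set, at 0.17 (adjusted p = 0.00451) for the brightest and -0.41 (adjusted p = 1.37e-05) for 1553994_at. When probe sets were averaged, the siAPC level was no longer called lower than the sibcat level (-0.06, adjusted p = 0.268), and the fall with TAZ siRNA in siAPC cells was -0.51 (adjusted p = 6.71e-10).

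Of 15 other measured genes of extracellular adenosine turnover, 5 fell after siAPC (18.7% of all genes) and the other 10 were not called. With TAZ siRNA in siAPC cells 1 rose and 5 fell, beside 20.7% and 22.8% of all genes. ADA, the deaminase that removes adenosine, averaged 9.06 in siAPC/siTAZ and 9.51 in siAPC cells, 9.81 in sibcat/siTAZ and 9.88 in sibcat cells, and 9.92 in siGFP cells. ADA fell by 0.41 after siAPC and by a further 0.45 with TAZ siRNA there, while its sibcat difference was -0.04 (adjusted p = 0.525). ADORA2B, an adenosine receptor, fell by 0.42 after siAPC and 0.26 after sibcat. ENTPD2 and ENTPD3, which break down extracellular nucleotides, fell by 0.76 and 0.68 after siAPC, although both were dim, with group means between 4.18 and 5.18. ADORA2A was not analysed here.

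**Figure D2:**
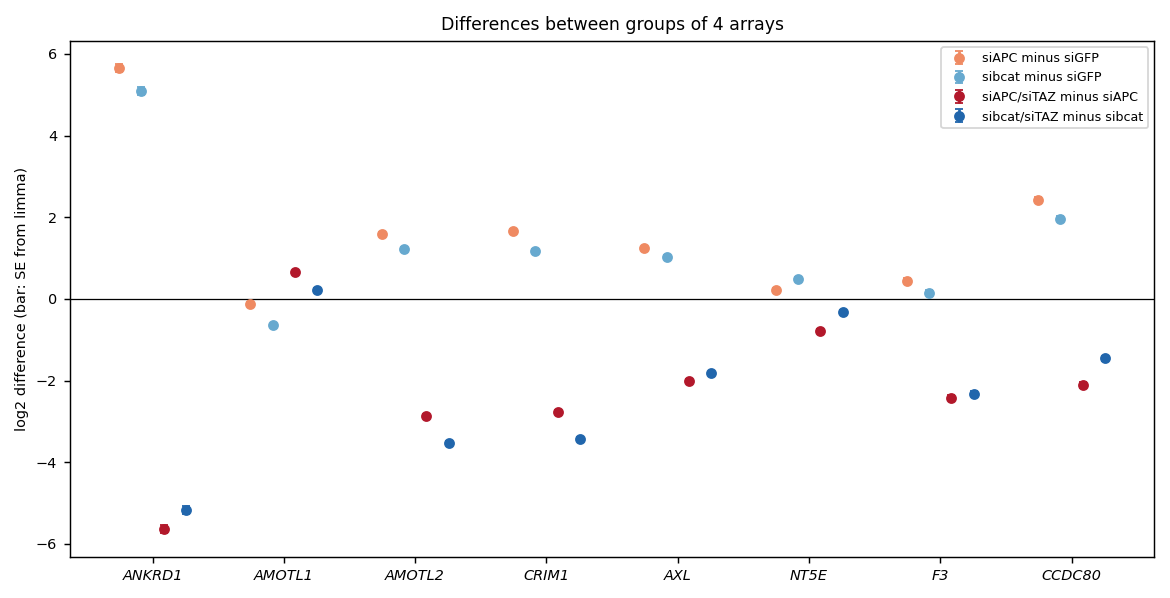
Log2 difference (vertical axis, bars for the SE from limma) of each TEAD target in 4 comparisons: the single depletions minus siGFP and the combined depletions minus their single depletion. For 7 genes the 2 left points lie above 0 and the 2 right points below it. AMOTL1 has the opposite signs, and F3 after sibcat, at 0.15, did not pass the test.

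F3 is tissue factor, the cell-surface receptor that starts coagulation with factor VII, and its siGFP signal was near that of the single depletions. Its signal was 10.11, 10.17, 10.17 and 10.13 on the siAPC/siTAZ arrays, against 12.53, 12.48, 12.69 and 12.58 on the siAPC arrays. It was 9.89, 9.91, 10 and 9.98 on the sibcat/siTAZ arrays, against 12.32, 12.43, 12.06 and 12.27 on the sibcat arrays, and 12.15, 12.16, 12.13 and 12.06 on the siGFP arrays. The 8 arrays with TAZ siRNA lay far below the rest, and the sibcat and siGFP arrays overlapped. F3 fell with TAZ siRNA by 2.43 (SE 0.06, adjusted p = 8.06e-17) in the siAPC and by 2.33 (SE 0.06, adjusted p = 2.96e-16) in the sibcat background, to 3.94-fold and 4.53-fold below siGFP. The rise after siAPC was 0.45 (adjusted p = 5.88e-06). After sibcat the difference was 0.15 (SE 0.06, adjusted p = 0.0745), and it passed the test without sibcat replicate C (0.22, adjusted p = 0.00277), with dim genes left out (adjusted p = 0.0463 and 0.037), with arrays centred on their medians (adjusted p = 0.0392) and with an intensity trend in the variance (adjusted p = 0.0378).

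Of 13 measured genes that act with F3 in coagulation, 6 rose and 2 fell with TAZ siRNA in siAPC cells, beside 20.7% and 22.8% of all genes. In sibcat cells 8 rose, beside 18% of all genes, and the other 5 were not called. TFPI, the inhibitor of the F3 and factor VII complex, averaged 9.30 in siAPC/siTAZ and 8.88 in siAPC cells, 10.76 in sibcat/siTAZ and 10.15 in sibcat cells, and 9.80 in siGFP cells, so TAZ siRNA raised it by 0.41 (adjusted p = 7.35e-08) and 0.61 (adjusted p = 5.02e-10). SERPINE2, a thrombin inhibitor, rose by 0.33 and 0.83. PROCR, the endothelial protein C receptor, rose by 0.43 and 0.47.

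F2RL2, a receptor of the thrombin receptor family, moved most under TAZ siRNA in this list. It averaged 6.84 ± 0.06 in siAPC/siTAZ and 5.78 ± 0.09 in siAPC cells, 9.11 ± 0.05 in sibcat/siTAZ and 6.82 ± 0.09 in sibcat cells, and 5.18 ± 0.14 in siGFP cells (SD, n = 4 each). TAZ siRNA raised it by 1.05 in the siAPC and by 2.29 in the sibcat background, and the difference between the 2 effects was -1.23 (adjusted p = 4.13e-09). F2R, the main thrombin receptor, rose by 0.66 in sibcat cells, and its rise of 0.25 in siAPC cells (adjusted p = 0.0132) turned to -0.08 (adjusted p = 0.629) on another probe set. PLAUR, the urokinase receptor, and PLAT, tissue plasminogen activator, were the 2 that fell in siAPC cells, by 0.54 and 0.38. Neither fell in the sibcat background. PLAT averaged 8.635 in sibcat/siTAZ and 7.92 in sibcat cells, and PLAUR 9.69 and 9.58. F2RL1 was not analysed here.

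CCDC80 is a secreted protein of the extracellular matrix linked to adhesion. Its brightest probe set gave 8.30, 8.15, 8.04 and 8.13 on the siAPC/siTAZ arrays, against 10.28, 10.25, 10.23 and 10.31 on the siAPC arrays. It gave 8.55, 8.23, 8.19 and 8.39 on the sibcat/siTAZ arrays, against 9.85, 9.75, 9.80 and 9.79 on the sibcat arrays, and 7.74, 7.89, 7.83 and 7.88 on the siGFP arrays. The single depletions were far above siGFP, and the combined depletions stayed slightly above it on every array. CCDC80 rose 5.40-fold after siAPC (log2 difference 2.43, SE 0.07, adjusted p = 2.64e-16) and 3.90-fold after sibcat (1.96, adjusted p = 1.2e-14). With TAZ siRNA it fell by 2.11 (adjusted p = 2.12e-15) in the siAPC background and fell by 1.46 (adjusted p = 1.15e-12) in the sibcat background, and remained above siGFP by 0.32 (adjusted p = 0.000457) in siAPC/siTAZ and 0.51 (adjusted p = 2.74e-06) in sibcat/siTAZ cells.

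Among 7 genes related to CCDC80 in domain make-up or matrix adhesion, 4 rose and 3 fell after siAPC, beside 21.3% and 18.7% of all genes, and 4 rose and 2 fell with TAZ siRNA in siAPC cells, beside 20.7% and 22.8%. THBS1, the matrix protein thrombospondin, averaged 9.80 ± 0.12 in siAPC/siTAZ and 12.10 ± 0.25 in siAPC cells, 9.12 ± 0.12 in sibcat/siTAZ and 12.01 ± 0.30 in sibcat cells, and 11.11 ± 0.12 in siGFP cells (SD, n = 4 each). THBS1 rose by 0.99 and 0.90 after the single depletions and fell by 2.30 and 2.88 with TAZ siRNA. LOX, a collagen cross-linking enzyme, rose by 0.58 and 0.43 and fell by 0.87 and 0.57. SRPX, which shares a domain type with CCDC80, had other signs: -0.38 and 0.30 after the single depletions, and 0.85 and 0.67 with TAZ siRNA, all called. ECM2, a matrix protein, rose by 1.06 and 1.08 after the single depletions.

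ANKRD2, a relative of ANKRD1, also rose after the single depletions and fell with TAZ siRNA. It averaged 4.47 ± 0.29 in siAPC/siTAZ and 6.68 ± 0.12 in siAPC cells, 4.48 ± 0.08 in sibcat/siTAZ and 6.21 ± 0.33 in sibcat cells, and 4.91 ± 0.13 in siGFP cells (SD, n = 4 each). It rose by 1.77 (adjusted p = 2.57e-09) and 1.29 (adjusted p = 2.85e-07) after the single depletions and fell by 2.21 (adjusted p = 7.02e-11) and 1.73 (adjusted p = 5.54e-09) with TAZ siRNA. ANKRD23, another relative, rose with TAZ siRNA by 0.61 and 0.77. MYPN, the sarcomeric partner of ANKRD1, rose by 0.37 and 0.35 and fell by 0.76 and 0.73, at levels between 4.40 and 5.16. Of these 8 relatives and partners, 5 rose and 1 fell after siAPC, beside 21.3% and 18.7% of all genes, and 2 fell and 1 rose with TAZ siRNA in siAPC cells, beside 22.8% and 20.7%.

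**Figure D3:**
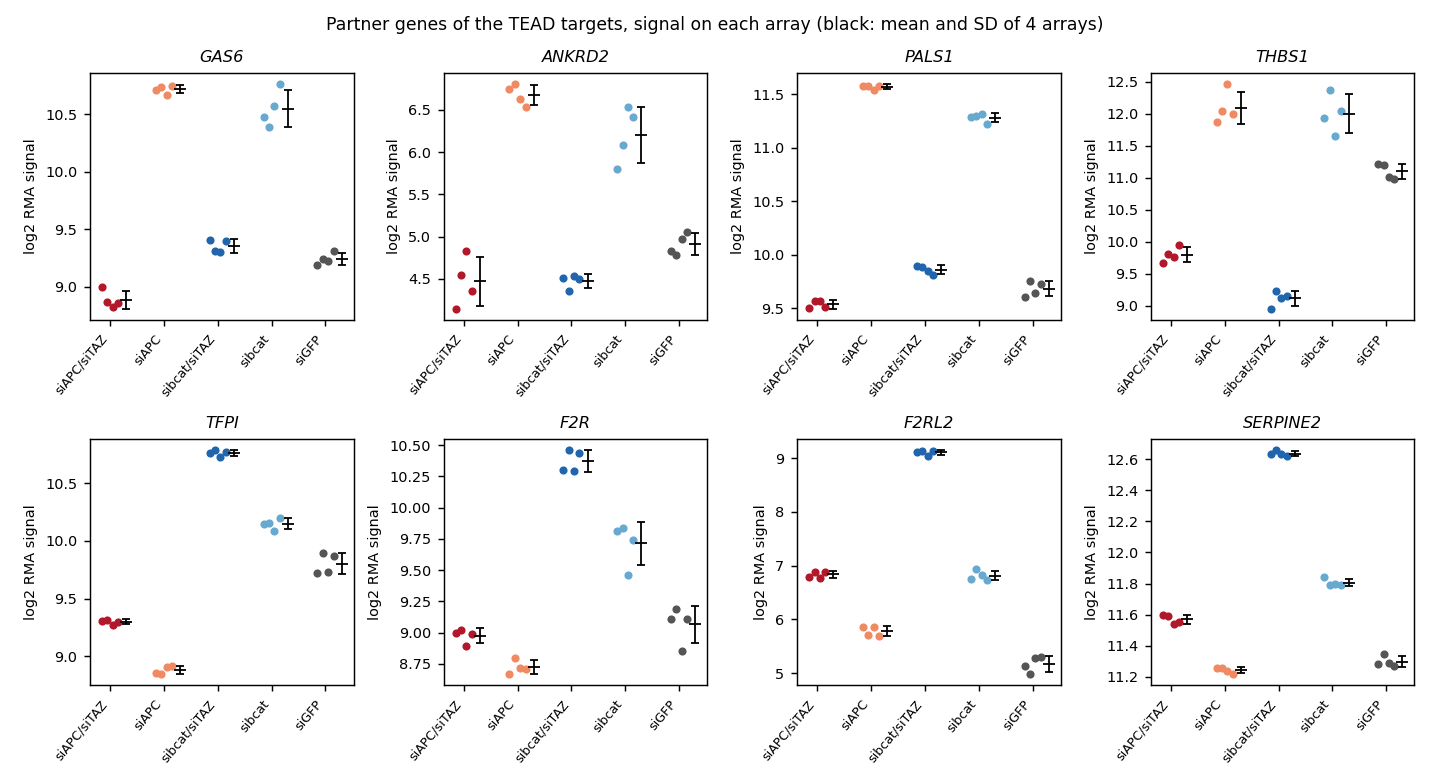
Log2 RMA signal (vertical axis) of 8 partner genes on every array by group, with the mean and SD of 4 arrays in black and a separate scale in each panel. GAS6, ANKRD2, PALS1 and THBS1 in the upper row are highest in siAPC and sibcat cells. TFPI, F2R, F2RL2 and SERPINE2 in the lower row are highest in sibcat/siTAZ cells.

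Against siGFP, the combined depletions split the 8 genes. In siAPC/siTAZ cells 5 were lower, 2 were higher (AMOTL1 by 0.54 and CCDC80 by 0.32) and ANKRD1 was not called, while 24.3% of all genes were lower and 23% higher. In sibcat/siTAZ cells 5 were lower, CCDC80 and NT5E were higher, by 0.51 and 0.17, and ANKRD1 was not called, beside 19.5% of all genes lower and 25.4% higher. The largest falls were in AMOTL2 and CRIM1 in sibcat/siTAZ cells, with differences of -2.30 (adjusted p = 5.71e-18) and -2.25 (adjusted p = 3.08e-18). The same genes differed by -1.28 and -1.11 in siAPC/siTAZ cells. In siAPC/siTAZ and sibcat/siTAZ cells F3 differed from siGFP by -1.98 and -2.18, and AXL by -0.76 and -0.80 (the second -0.475 with averaged probe sets). AMOTL1 in sibcat/siTAZ cells was lower than in siGFP cells by 0.42 (adjusted p = 3.19e-08), a call lost when its probe sets were averaged (-0.06, adjusted p = 0.213).

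Between the single depletions, 7 of the 8 genes were higher in siAPC than in sibcat cells and 1, NT5E, was lower, beside 16.3% of all genes higher and 17.5% lower. The differences of the 7 ran between 0.21 for AXL and 0.55 for ANKRD1. That of AXL was not called once its probe sets were averaged (0.19, adjusted p = 0.0552). Of the AMOTL1 probe sets only the brightest was called. Probe sets 225459_at (0.11, adjusted p = 0.0921), 228840_at (0.01, adjusted p = 0.944) and 235277_at (0.235, adjusted p = 0.0803) were not. With TAZ siRNA in both, 4 genes were higher in siAPC/siTAZ than in sibcat/siTAZ cells, namely CRIM1 by 1.14, AMOTL2 by 1.03, AMOTL1 by 0.95 and F3 by 0.20. NT5E and CCDC80 were lower, with differences of -0.73 and -0.19 (adjusted p = 0.0294 for CCDC80), beside 20.8% of all genes higher and 24.2% lower. With averaged probe sets NT5E had -0.136 (adjusted p = 0.00547) and AMOTL1 0.419 (adjusted p = 1.8e-08), and NT5E probe set 227486_at was called higher (0.83) while AMOTL1 probe set 228840_at was not called (adjusted p = 0.738). The CCDC80 difference was not called in a fit of these 2 groups alone (adjusted p = 0.121) or without siAPC/siTAZ replicate B, C or D or sibcat/siTAZ replicate A or D (adjusted p between 0.0552 and 0.137), and without sibcat/siTAZ replicate A it was -0.12.

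The size of the TAZ siRNA effect was then compared between the backgrounds as an interaction, the effect in siAPC cells minus that in sibcat cells. The depletions themselves were unequal. CTNNB1 was lower in sibcat/siTAZ (9.20) than in sibcat cells (10.60), and APC was lower in siAPC/siTAZ (6.89) than in siAPC cells (7.35). WWTR1 averaged 7.98 in siAPC/siTAZ and 8.41 in sibcat/siTAZ cells. The part of these levels in the TAZ siRNA comparisons and in the interaction was not tested. The interaction passed the test for 7 of the 8 genes, 3 higher and 4 lower, while 12.2% of all genes were higher and 15.5% lower. AMOTL2 and CRIM1 fell less in siAPC than in sibcat cells, each by 0.65 (adjusted p = 3.65e-07 and 1.3e-07), and AMOTL1 rose more, by 0.43 (adjusted p = 6.46e-06). CCDC80, NT5E and ANKRD1 fell further in siAPC cells, with interactions of -0.66 (adjusted p = 2.12e-05), -0.47 (adjusted p = 9.1e-06) and -0.48 (adjusted p = 0.0154). The ANKRD1 signal with TAZ siRNA was as dim as in siGFP cells and not shown to be above background, so the size of its falls and of its interaction is open to that limit. For ANKRD1 the combined depletions differed from each other by 0.07 (adjusted p = 0.618) and the single depletions by 0.55 (adjusted p = 0.000188). F3 had -0.10 (SE 0.09, adjusted p = 0.47). AXL had -0.18 (adjusted p = 0.031), a call lost without any of siAPC replicates A and B, siAPC/siTAZ replicates A and C, sibcat replicate B and sibcat/siTAZ replicates A and C, with repeated quantile normalization and with averaged probe sets. The NT5E interaction was also lost with averaged probe sets (-0.08). NT5E probe set 227486_at was called in the other direction (0.58, adjusted p = 0.00513), and 1553994_at was not called (adjusted p = 0.106). For AMOTL1, 228840_at (-0.045, adjusted p = 0.81) and 235277_at (adjusted p = 0.288) were not called.

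**Figure D4:**
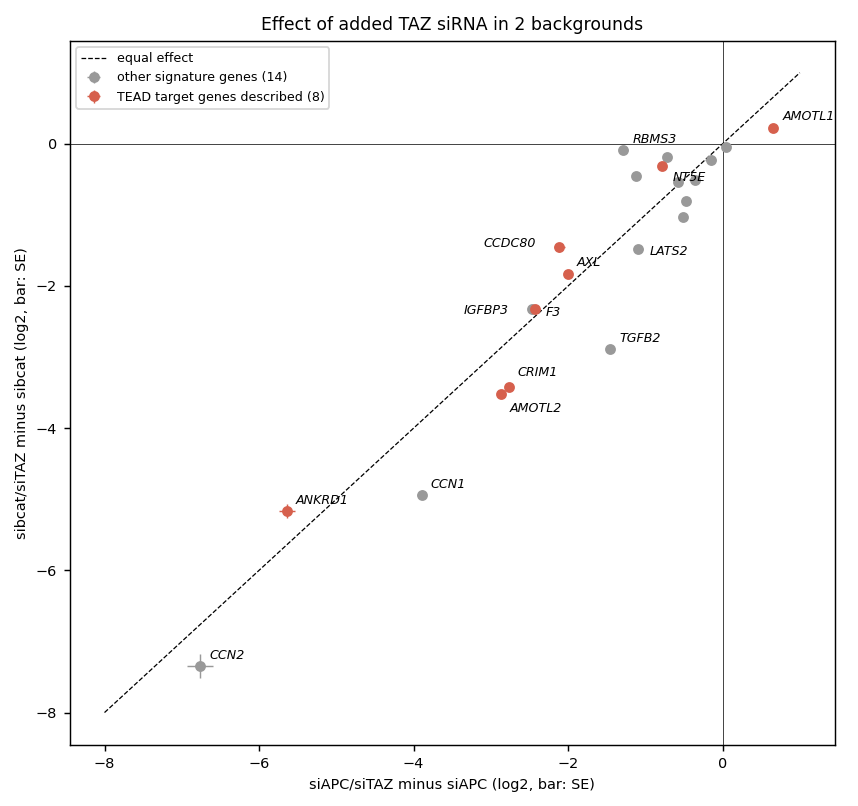
Log2 difference made by adding TAZ siRNA in sibcat cells (vertical axis) against that in siAPC cells (horizontal axis), with SE bars, for the 8 TEAD targets in red and 14 other YAP/TAZ signature genes in grey. The dashed line marks equal effects. AMOTL2 and CRIM1 lie below the line, CCDC80 above it, and AMOTL1 alone of the red points has positive values on both axes.

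The other genes of a published YAP/TAZ signature gave a reference for the size of these shifts. Of 14 measured, 11 rose and 1 fell after siAPC (median 0.76), beside 21.3% and 18.7% of all genes, and 12 fell with TAZ siRNA in siAPC cells (median -0.90), beside 22.8%. In sibcat cells 12 fell with TAZ siRNA (median -0.67), beside 13.7% of all genes, and in both backgrounds the other 2 were not called. The 3 with the widest swings were CCN2, CCN1 and IGFBP3, with TAZ siRNA differences of -6.76, -3.90 and -2.47 in siAPC cells and -7.35, -4.94 and -2.32 in sibcat cells. MYOF, a membrane repair protein, fell in every one of these comparisons, by 0.46 and 0.23 after the single depletions and by 1.12 and 0.45 with TAZ siRNA. NUAK2 was not analysed here.

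The TEAD factors and their cofactors also differed between groups. TEAD1, the brightest TEAD probe set, averaged 11.30 in siAPC/siTAZ and 11.72 in siAPC cells, 10.98 in sibcat/siTAZ and 11.54 in sibcat cells, and 10.84 in siGFP cells, with called rises of 0.89 and 0.70 after the single depletions and falls of 0.42 and 0.56 with TAZ siRNA. VGLL3, a TEAD cofactor, rose by 1.03 and 0.66 and fell by 1.50 and 0.94. VGLL4, which represses TEAD targets, rose by 0.76 and 0.72 with TAZ siRNA. TEAD2, unlike TEAD1, was also higher with TAZ siRNA. It averaged 7.97 in siAPC/siTAZ and 7.21 in siAPC cells, 7.16 in sibcat/siTAZ and 6.93 in sibcat cells, and 6.86 in siGFP cells. YAP1 was lower with each single depletion, by 0.58 and 0.44, and lower again with TAZ siRNA, by 0.74 and 0.36. Of the 11 genes of this list, which includes the siRNA target WWTR1, 5 rose and 2 fell after siAPC, beside 21.3% and 18.7% of all genes, and 7 fell and 2 rose with TAZ siRNA in siAPC cells, beside 22.8% and 20.7%.

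The 19 probe sets gave the same directions as the gene-level fit for most genes. After siAPC 13 were called higher and 2 lower, beside 18.2% and 16.6% of all probe sets, and with TAZ siRNA in siAPC cells 14 were lower and 3 higher, beside 19.3% and 19.8%. In the sibcat comparisons 13 were higher and 2 lower than siGFP (17.3% and 13.5% of all), and 15 fell and 3 rose with TAZ siRNA (11.7% and 14.3%). The CCDC80 probe sets gave TAZ siRNA differences of -2.04, -2.11 and -2.10 in siAPC cells. Against siGFP, however, 243864_at was not called in siAPC/siTAZ (0.18, adjusted p = 0.128) or sibcat/siTAZ cells (0.22, adjusted p = 0.0695), where the other 2 were higher. The AMOTL1 probe sets did not all give the same direction. Probe set 225459_at followed the brightest one, with 0.49 and 0.30 for TAZ siRNA. Probe set 228840_at had no call after siAPC (0.11, adjusted p = 0.248) or sibcat (0.10, adjusted p = 0.317), and 235277_at was near the array median.

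**Figure D5:**
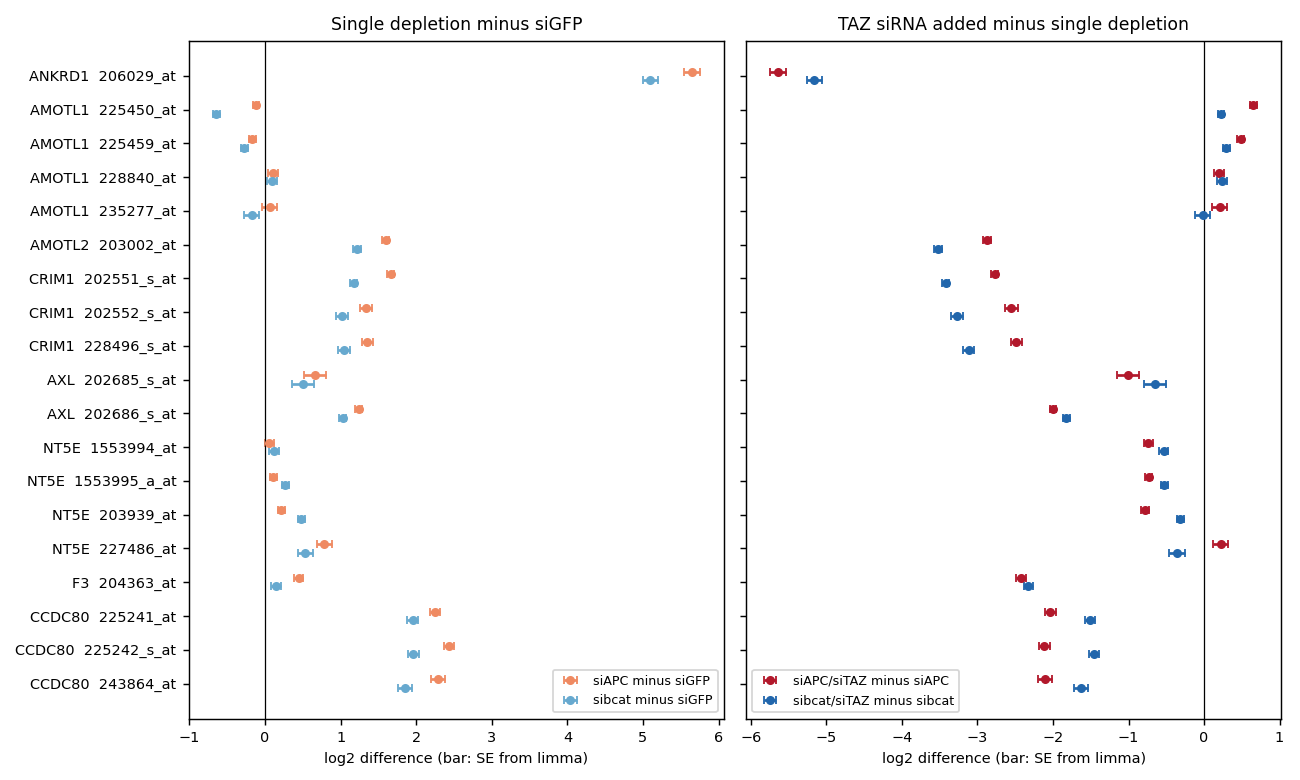
Log2 difference (horizontal axis, bars for the SE from limma) of each of the 19 probe sets, listed down the page by gene, for the single depletions minus siGFP on the left and for added TAZ siRNA on the right. All 3 CRIM1 and all 3 CCDC80 probe sets lie on one side of 0 in each panel. Those of AMOTL1 lie on both sides in the left panel and, with 235277_at at -0.02 in sibcat cells, in the right panel. Those of NT5E lie on both sides in the right panel.

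Across the 20 arrays the signals of AMOTL2 and CRIM1 ran closest together (Pearson r = 0.998), followed by ANKRD1 and CCDC80 (r = 0.974), while AMOTL1 ran against NT5E (r = -0.943). The arrays form 5 groups of replicates, and within groups r was 0.10 for AMOTL2 and CRIM1 and -0.35 for ANKRD1 and CCDC80. Among 2605 genes whose group means spanned at least 1, the closest to ANKRD1 was IGFBP3 (r = 0.997), to AMOTL1 PPP3CA (0.996), to AMOTL2 PTTG1IP (0.991), to CRIM1 SAMD4A (0.992), to AXL DAPK1 (0.993), to NT5E IQGAP3 (0.976), to F3 TXNIP (0.993) and to CCDC80 FBN2 (0.990). MITF was among the 3 closest for both AMOTL2 (0.991) and CRIM1 (0.991).

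Some measures of cell state and RNA quality moved with TAZ siRNA as well. Of the 8 mammary epithelial markers, 7 fell and 1 rose with TAZ siRNA in siAPC cells (median -0.39), beside 22.8% and 20.7% of all genes. In sibcat cells 5 fell and 2 rose (median -0.27), beside 13.7% and 18% of all genes. Against siGFP, 7 were lower in siAPC/siTAZ and 7 in sibcat/siTAZ cells (medians -0.86 and -0.69), beside 24.3% and 19.5% of all genes. KRT8 averaged 10.03 in siAPC/siTAZ and 11.50 in siAPC cells, and 10.195 in sibcat/siTAZ and 11.28 in sibcat cells, with 10.945 in siGFP cells. KRT18 averaged 11.74 in siAPC/siTAZ and 13.085 in siAPC cells, and 12.09 in sibcat/siTAZ and 12.91 in sibcat cells, with 12.715 in siGFP cells. KRT5 went the other way in both backgrounds. It averaged 12.68 in siAPC/siTAZ and 11.88 in siAPC cells, and 12.34 in sibcat/siTAZ and 11.58 in sibcat cells, with 12.27 in siGFP cells. SFN averaged 12.915 in siAPC/siTAZ and 13.09 in siAPC cells, but 12.99 in sibcat/siTAZ and 12.675 in sibcat cells. The summed log2 level of the 8 epithelial markers ran between 14.54 and 14.60 in siAPC/siTAZ and between 14.88 and 14.93 in siAPC cells. It ran between 14.52 and 14.57 in sibcat/siTAZ and between 14.59 and 14.74 in sibcat cells, and between 14.9403 and 15.0016 in siGFP cells. The summed log2 level of 8 fibroblast markers ran between 13.15 and 13.19 in siAPC/siTAZ and between 11.56 and 11.62 in siAPC cells, between 13.07 and 13.16 in sibcat/siTAZ and between 12.03 and 12.12 in sibcat cells, and between 12.51 and 12.63 in siGFP cells. Such a level is the log2 of the summed linear signals, so the brightest markers dominate it. DCN was the brightest fibroblast marker in every group. With TAZ siRNA 4 of the 8 rose and 1 fell in siAPC cells, beside 20.7% and 22.8% of all genes. The rise was led by COL3A1 (9.86 in siAPC/siTAZ and 5.08 in siAPC cells). COL1A1 averaged 11.215 in siAPC/siTAZ and 8.54 in siAPC cells, and DCN 12.505 and 11.32. PDGFRB averaged 5.62 in siAPC/siTAZ and 6.05 in siAPC cells, while PDGFRA, LUM and TCF21 averaged at most 3.93 in all groups. The ACTB 3′ minus 5′ control signal, a measure of RNA integrity, averaged 1.99 ± 0.08 in siAPC/siTAZ and 1.56 ± 0.03 in siAPC cells, 2.04 ± 0.06 in sibcat/siTAZ and 1.81 ± 0.05 in sibcat cells, and 1.83 ± 0.06 in siGFP cells (SD, n = 4 each). In a two-sided exact permutation test, siAPC/siTAZ against siAPC gave p = 0.0286, the smallest that 4 against 4 arrays allow, and 0.0572 after adjustment over 16 comparisons. ACTB gave the same values without TAZ siRNA, in siAPC against siGFP (-0.26) and against sibcat. It also gave them in sibcat/siTAZ against sibcat and against siGFP. The GAPDH control signal gave them in siAPC, siAPC/siTAZ and sibcat/siTAZ, each against siGFP. The part of these measures in the TEAD target results was not tested.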

How the data were processed

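The authors deposited 1 table of log2 signals. The submitters' processing notes name RMA, which corrects background, equalises array distributions by quantiles and summarises each probe set, and the log2 scale was read from their range. The RMA version is not given in the sources used. Of 54675 probe sets, 41091 carried 1 gene symbol in the platform annotation. For each gene the probe set whose mean across arrays was highest stood for it, which gave 19775 genes. A group-means model over the 20 arrays was fitted with limma 3.58.1 in R 4.3.3 (two-sided, empirical Bayes moderation, Benjamini-Hochberg adjustment over all genes in each comparison), and a gene was called at adjusted p under 0.05. The same model was fitted to all 41091 probe sets. The fit was tested on simulated data. Group means are given with the SD, and log2 differences with the SE from the fit. No filter on low signal was applied, and levels of different probe sets are not compared.

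The 8 genes and the gene lists were chosen with earlier results of these data known, so counts over them are descriptions. Named genes were the 8, the siRNA targets, up to 4 genes in each direction with the smallest adjusted p in a list, genes that moved against their list, and the genes with the highest Pearson r over the 20 arrays. ALPP, which the rule also covers, fell by 1.14 after siAPC and by 1.27 with TAZ siRNA in siAPC cells. Promoter windows came from RefSeq. Replicate letters gave no pairing: residuals of arrays with the same letter correlated across groups at a median of 0.027 (range -0.088 to 0.156), and for 7 of 20 arrays the best match carried the same letter. Alternatives were the mean of a gene's probe sets, probe sets without cross-hybridising types, filters on dim genes, median centring, repeated quantile normalization, fits of single pairs of groups, a trended variance, array weights (added after the data were seen), a replicate block and leaving out each array.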

Additional observations from a re-analysis of the deposited data

Results flagged for a closer look

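In 7 of the 95 combinations of probe set and group, 1 array stood apart from the other 3 by Dixon's criterion, which chance meets in about 1 in 20 groups. ANKRD1 was low in siAPC/siTAZ replicate A, at 2.80. On AMOTL1 probe set 228840_at, siAPC/siTAZ replicate C was low at 7.09 and sibcat/siTAZ replicate B was low at 7.08. CRIM1 was high in siGFP replicate A on 202551_s_at, at 9.22, and high in sibcat/siTAZ replicate D on 202552_s_at, at 6.29. NT5E probe set 1553994_at was high in siGFP replicate A, at 9.16, and CCDC80 probe set 225241_at was low in siGFP replicate D, at 6.87.

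The effect of added TAZ siRNA differed between siAPC and sibcat cells for 7 of the 8 genes by the interaction test, on the brightest probe set of each. With averaged probe sets 5 were called, and the calls of AXL and NT5E were lost. The difference, siAPC minus sibcat, was 0.65 for AMOTL2, 0.65 for CRIM1, 0.43 for AMOTL1, -0.18 for AXL, -0.47 for NT5E, -0.48 for ANKRD1 and -0.66 for CCDC80.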

How the results depend on the processing

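Of 72 results (8 genes in 9 comparisons), 1360 values under alternatives were computed. Of these, 1328 kept their call or lack of one, 26 lost the call, 5 gained it and 1 changed sign. A sign change was counted only where the main or the alternative value was called. Uncalled values near 0 could change sign and count as kept, as for ANKRD1 in siAPC/siTAZ against siGFP (0.0075, alternatives between -0.069 and 0.103). The sign changed for NT5E in sibcat/siTAZ against siGFP, which was -0.0819 (adjusted p = 0.0887 in limma) when its probe sets were averaged, against 0.165 for its brightest probe set. Among the other genes, averaging gave 0.2575 for LOX in sibcat/siTAZ against siGFP (brightest probe set -0.1325), 0.0192 for YAP1 in siAPC against sibcat (-0.1425) and 0.343 for FN1 in the difference between the TAZ siRNA effects (-0.0425). F2R in siAPC/siTAZ against siAPC was -0.0775 with cross-hybridising probe sets left out, against 0.25 with them. The cause was not tested. All 8 genes were called for TAZ siRNA in siAPC and in sibcat cells under each alternative run. Leaving out single arrays gave 7 to 8 genes for siAPC and for sibcat against siGFP, 5 to 6 for siAPC/siTAZ against sibcat/siTAZ, and 6 to 7 for the difference between the TAZ siRNA effects. Averaging probe sets left 5 of 7 genes called in sibcat/siTAZ against siGFP. With the replicate letter as a block, 8 genes were called after siAPC, 7 after sibcat and 8 with TAZ siRNA in either background, and no count over the 8 genes changed. The 4 arrays a group limit the precision.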

Other observations

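Array weights, estimated after the data were seen, were lowest for sibcat replicate D, at 0.489, and with them the number of the 8 genes called was the same in all 9 comparisons. CD14, a leukocyte marker, averaged 5.68 in siAPC/siTAZ, 5.13 in siAPC, 8.16 in sibcat/siTAZ, 7.60 in sibcat and 7.83 in siGFP cells, while PTPRC, which marks all leukocytes, averaged at most 2.73 in any group. PECAM1, an endothelial marker, averaged 5.74 in siAPC/siTAZ, 5.24 in siAPC, 6.73 in sibcat/siTAZ, 6.65 in sibcat and 6.545 in siGFP cells.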
